A study of Mus with 6 samples.

Results

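The circadian clock genes Per1, Per2, Per3, Nr1d1, Nr1d2, Ciart and Clock and the clock output genes Dbp, Tef and Hlf were followed in mouse lens epithelial cells (LECs) after lens injury. These 10 genes were chosen by name, and 9 of them could be matched to an Ensembl ID among the 55421 genes counted. Clock had no ID at hand and was not analysed here. RNAseq was done on the LECs of wild type C57BL/6 mice that stay on the lens capsule after cataract surgery, in which the lens fiber cells are removed through an anterior incision, at 0 h and at 6 h post cataract surgery (PCS). Each time point had 3 libraries of total RNA made from 5 pooled capsules apiece. The labels give all mice an age of 2 months, whereas the paper's methods give an older range and both sexes. No group carried a transgene or a drug treatment.

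According to the labels, a mouse had one eye operated first and the fellow eye after a further 6 h, and was then killed for collection of the capsules. On that account the 0 h and 6 h capsules shared the hour of the day, and a 0 h capsule came from an animal whose other eye had been operated earlier. The methods say that the capsules of one pool came from independent animals and give no hour of collection. If the hours differed between the groups, time of day and time PCS cannot be told apart in these libraries. Whether the pools came from separate litters or days is not given in the sources used here, so p-values measure the spread between these 6 pools.

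The clock of mammalian cells is a feedback loop of transcription. CLOCK and its partner BMAL1 (gene Arntl) bind E-box sequences and drive the Per and Cry genes, whose proteins enter the nucleus and repress that same pair. REV-ERBα and REV-ERBβ, the products of Nr1d1 and Nr1d2, form a further loop by repressing Arntl, and CIART also binds BMAL1 and represses it. DBP, TEF and HLF are closely related bZIP transcription factors that carry the rhythm outward by activating genes through D-box sequences, where NFIL3 acts as their repressor. Per1 and Per2 can in addition be induced within hours by acute signals such as cAMP and glucocorticoids.

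At 6 h PCS the clock and output genes did not move as one block. Ciart and the output factors Tef, Dbp and Hlf fell, Per3 was lower in every library without passing the test, and Per1, Per2, Nr1d1 and Nr1d2 were not called in either direction. A differentially expressed gene (DEG) was one with a fold change above 2 and, with edgeR over 16810 tested genes, a false discovery rate (FDR) no higher than 0.05. Of the 9 genes, all of which passed the low-count filter, 4 fell at the FDR limit and 2 of those, Ciart and Tef, were downregulated DEGs. Among all genes tested, 8.33% passed the FDR limit in either direction and 2.02% were lower, while 5.35% were DEGs and 0.821% were downregulated DEGs. Symbols were matched through tables of the study that hold the changed genes in part, and among the 6372 tested genes with a symbol the shares were 5.02% and 2.1%. With edgeR, 0 of the 9 were upregulated DEGs, as with DESeq2 and the exact test of edgeR, and 1 (Per1) was higher at an unadjusted p under 0.05. Over the 9 genes the log2 fold changes had a median of −0.67, beside −0.0030 over all genes tested. The 6 h libraries all lay below the 0 h libraries in 6 of the 9 genes and all above them in 1, and overlapped in 2. Over all genes tested, 30.6% had groups that did not overlap, 15.3% in each direction.

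**Figure D1:**
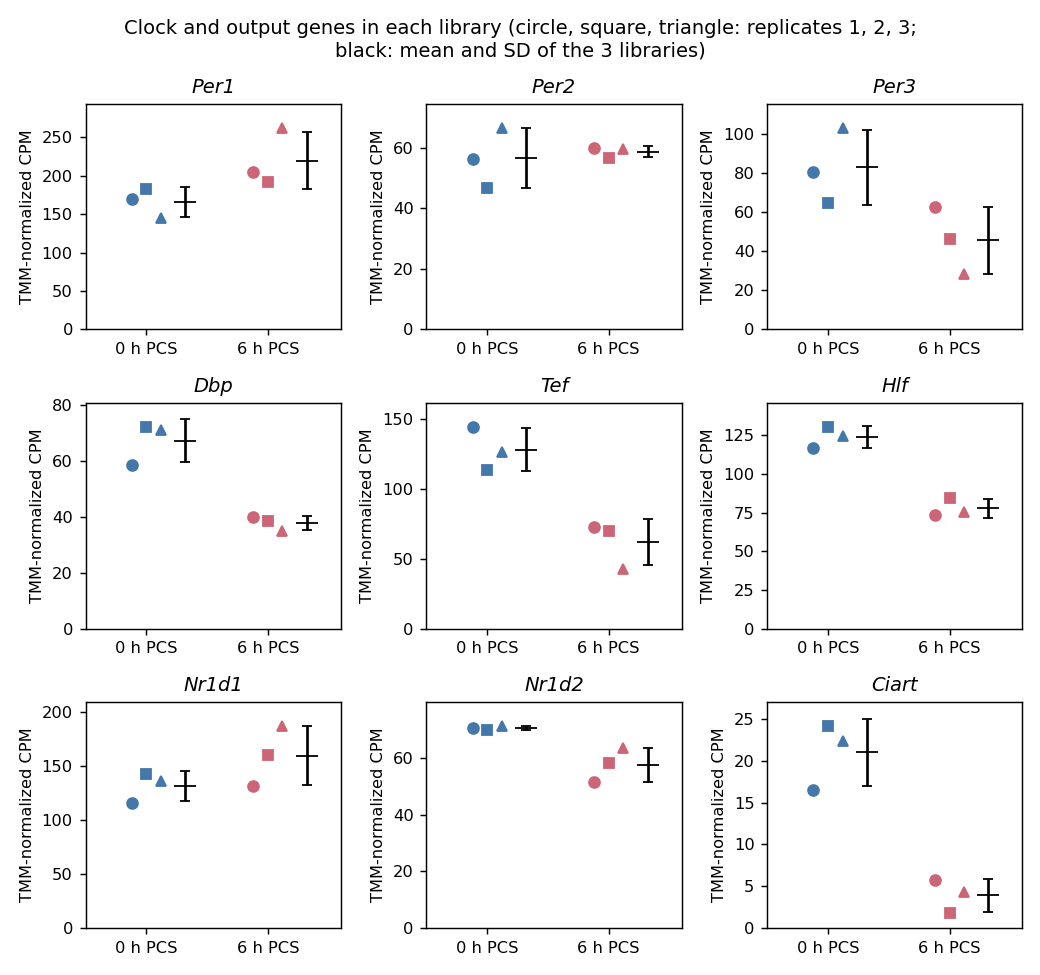
Each panel plots one gene's level in counts per 1000000 (CPM, TMM-normalized, linear axis from 0) in the 3 libraries at 0 h PCS and the 3 at 6 h PCS, with the mean and SD in black. The groups are apart in Dbp, Tef, Hlf, Ciart, Per3, Nr1d2 and Per1 and overlap in Per2 and Nr1d1, and Ciart shows the lowest 6 h levels relative to 0 h.

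Ciart encodes a repressor of the CLOCK and BMAL1 pair and showed the deepest fall. Its levels were 16.5, 24.2 and 22.4 CPM at 0 h PCS and 5.71, 1.75 and 4.28 CPM at 6 h PCS, where CPM is the count per 1000000 counts on tested genes after scaling by the trimmed mean of M-values (TMM). The highest 6 h library was thus well under the lowest 0 h library. The mean went from 21.0 ± 4.03 to 3.91 ± 2.00 CPM (SD, n = 3), or 18.6% of the 0 h level. The log2 fold change was −2.44 (standard error 0.387, 95% interval −3.31 to −1.57, edgeR adjusted p = 0.00537). The 6 h values rest on 85, 39 and 71 counts, against 383, 663 and 520 counts at 0 h PCS. Leaving out any one of the 6 libraries kept Ciart a DEG, at log2 fold changes from −2.82 to −2.10. In a test against a fold of 2 it stood at the limit, with an adjusted p of 0.0499 from edgeR's glmTreat. The gene (ENSMUSG00000038550, GRCm38 chromosome 3, 95878500 to 95882257) is overlapped over its whole length by the noncoding RNA gene C920021L13Rik in the RefSeq annotation, and the strand setting of the counting is not given in the sources used here.

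Dbp, Tef and Hlf, the output factors of the PAR bZIP family, fell together. The sum of their levels was 319, 316 and 322 CPM in the 0 h libraries and 186, 193 and 153 CPM in the 6 h libraries. The 0 h sums differed by only a few CPM, and the mean at 6 h PCS was 55.7% of the mean at 0 h. In the same libraries the lens epithelial markers Pitx3, Prox1, Sox2 and Mab21l1 fell by 0.86, 0.75, 0.70 and 0.53 on the log2 scale at the FDR limit of edgeR, while Pax6 (−0.51) and Foxe3 (0.28) were not called. Pigment and erythrocyte marker levels are given with the other marker lists, and the part of any of these in the fall of Dbp, Tef and Hlf was not tested. The 3 genes lie on different chromosomes, Dbp on chromosome 7 (45705100 to 45710203), Tef on chromosome 15 (81802673 to 81826863) and Hlf on chromosome 11 (90336535 to 90390917).

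Tef had 144, 113 and 126 CPM at 0 h PCS and 72.8, 69.8 and 42.8 CPM at 6 h PCS. Its lowest 0 h library was above its highest 6 h library, and 6 h replicate 3 stood apart at the low end. The log2 fold change was −1.05 (standard error 0.203, 95% interval −1.50 to −0.59, edgeR adjusted p = 0.0124), just past the fold limit. Without 6 h replicate 3 it was −0.84, under the fold limit (edgeR adjusted p = 0.0138), and without 0 h replicate 1 it was −0.96 with an edgeR adjusted p of 0.0678.

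Dbp encodes the D-box factor best known as a clock output and had 58.3, 72.0 and 71.0 CPM at 0 h PCS and 39.9, 38.5 and 34.9 CPM at 6 h PCS. The groups did not overlap and the 6 h libraries lay close together. Its log2 fold change of −0.83 (standard error 0.143, edgeR adjusted p = 0.00751) passed the FDR limit and not the fold limit. The last 741 bases of its RefSeq span are shared with Sphk2, which was not analysed here.

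Hlf had 117, 130 and 125 CPM at 0 h PCS and 73.7, 84.8 and 75.2 CPM at 6 h PCS. Its levels were among the tightest of the 9 genes, with an SD of 6.86 CPM at 0 h and 6.03 CPM at 6 h PCS. The log2 fold change was −0.67 (standard error 0.127, 95% interval −0.95 to −0.39, edgeR adjusted p = 0.0113), so that Hlf, like Dbp, stayed short of a fold of 2. Both passed the FDR limit in each of the 6 fits without one library, with adjusted p-values from edgeR up to 0.0367 for Dbp and 0.0482 for Hlf.

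Levels can be set side by side between genes only per length, and exon lengths were at hand for 5 of the 9. In FPKM, fragments per kilobase of exon per 1000000 counted on genes, Dbp was at 25.04 ± 3.30, Hlf at 20.7 ± 1.44, Tef at 18.1 ± 2.00, Ciart at 10.4 ± 2.13 and Per3 at 9.64 ± 2.42 at 0 h PCS (SD, n = 3). Each neighbour in this order lay within the sum of the SDs, apart from Tef and Ciart. At 6 h PCS the order was Dbp at 11.3 ± 1.28, Hlf at 10.5 ± 1.81, Tef at 7.06 ± 2.06, Per3 at 4.22 ± 1.46 and Ciart at 1.503 ± 0.672 FPKM (SD, n = 3). Dbp and Hlf were again within their spread, and Ciart had moved from level with Per3 to below it. FPKM was scaled on the total gene count and not by TMM, so its time points differ somewhat more than those in CPM.

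The period genes encode repressors of the loop, and none of the 3 was called. Per1 (ENSMUSG00000020893, chromosome 11, 69095108 to 69109965) had 170, 183 and 144 CPM at 0 h PCS and 204, 192 and 262 CPM at 6 h PCS. Every 6 h library was above every 0 h library, by a narrow margin for 6 h replicate 2. The log2 fold change of 0.41 (standard error 0.161, 95% interval 0.048 to 0.77) did not pass after adjustment (edgeR adjusted p = 0.161). The interval stays below a doubling of Per1.

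Per2 (chromosome 1, 91415977 to 91459351) had 56.4, 46.7 and 66.6 CPM at 0 h PCS and 60.0, 56.6 and 59.6 CPM at 6 h PCS. All 3 of the 6 h values lay inside the range of the 0 h values. Its log2 fold change was 0.054 (standard error 0.154, 95% interval −0.29 to 0.40, edgeR adjusted p = 0.873), and the sign turned to −0.070 without 0 h replicate 2.

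Per3 (chromosome 4, 150997018 to 151044707) had 80.6, 64.8 and 103 CPM at 0 h PCS and 62.4, 46.0 and 28.3 CPM at 6 h PCS. The groups were only just apart, since 0 h replicate 2 and 6 h replicate 1 were nearly level. The log2 fold change of −0.86 was close in size to that of Dbp, but its standard error was 0.285 against 0.143 for Dbp, and the edgeR adjusted p was 0.110. Without 6 h replicate 1 it was −1.16 and a DEG (edgeR adjusted p = 0.0459), and without 6 h replicate 3 it was −0.61 (edgeR adjusted p = 0.146). DESeq2 gave an adjusted p of 0.0176, and edgeR without a low-count filter 0.000416, at a fold that stayed under 2. RefSeq places 4714 bases of Uts2 inside the Per3 span and 14768 bases of the noncoding Gm35591 inside the Per2 span.

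Nr1d1, which encodes REV-ERBα (chromosome 11, 98767932 to 98775377), had 116, 142 and 136 CPM at 0 h PCS and 132, 161 and 187 CPM at 6 h PCS. The 6 h range began inside the 0 h range. The log2 fold change was 0.28 (standard error 0.160, 95% interval −0.074 to 0.64, edgeR adjusted p = 0.329), and it was −0.028 with libraries scaled on size alone, which lowered the median of all genes to −0.32. Nr1d1 and Thra, a thyroid hormone receptor gene, share 1075 bases, and Thra was at 189 ± 23.0 CPM at 0 h and 173 ± 17.6 CPM at 6 h PCS (SD, n = 3), with a log2 fold change of −0.13 (edgeR adjusted p = 0.633).

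Nr1d2, which encodes REV-ERBβ (chromosome 14, 18204056 to 18239106), had 70.6, 70.0 and 71.3 CPM at 0 h PCS and 51.5, 58.3 and 63.6 CPM at 6 h PCS. The 0 h libraries were nearly identical, and all 6 h libraries lay below them. Its log2 fold change of −0.29 (standard error 0.133, 95% interval −0.59 to 0.0060, edgeR adjusted p = 0.226) was not called.

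**Figure D2:**
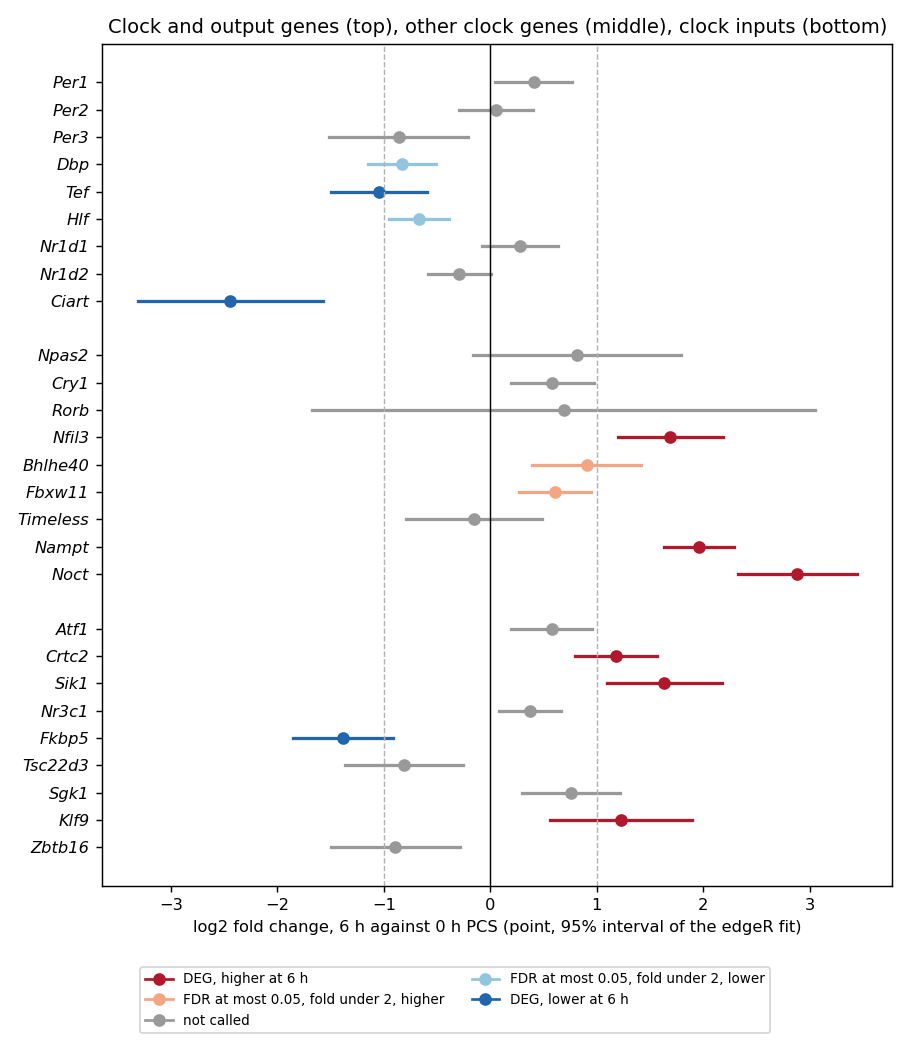
Points give the log2 fold change of each gene at 6 h against 0 h PCS and bars its 95% interval from the edgeR fit, with dashed lines at a fold of 2 in either direction. The clock and output genes at the top reach down to −2.44 in Ciart and up to 0.41 in Per1, while the other clock genes reach 2.88 in Noct.

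Ratios of counts within a library need no scaling between libraries, and 5 of them were compared, all chosen after the values had been seen. Per1 over Per3 was 2.11, 2.82 and 1.40 at 0 h PCS and 3.27, 4.18 and 9.28 at 6 h PCS, a difference in log2 ratio of 1.31 (standard error 0.540). Nr1d1 over Nr1d2 was 1.64, 2.03 and 1.91 at 0 h and 2.56, 2.76 and 2.94 at 6 h PCS, a difference of 0.57 (standard error 0.109). In both pairs the 3 libraries at 6 h PCS all exceeded those at 0 h. Per1 over Ciart went from 10.3, 7.57 and 6.44 to 35.8, 110 and 61.3, a difference of 2.97 in log2 ratio (standard error 0.507). Each of these had a two-sided exact permutation p of 0.10, the smallest that 3 libraries against 3 allow, and 0.125 after Benjamini-Hochberg adjustment over the 5 ratios. Per1 was already higher in every 6 h library and Per3 and Ciart lower. The separation of Per1 over Per3 and of Per1 over Ciart therefore followed from the single genes. Per1 over Per2 overlapped between the time points, with a difference of 0.33 (standard error 0.276, exact permutation p = 0.40, adjusted p = 0.40).

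The remaining ratio set the D-box repressor NFIL3 against the D-box activators. Nfil3 had 36.6, 27.0 and 19.2 CPM at 0 h PCS and 85.5, 81.2 and 100 CPM at 6 h PCS, a log2 fold change of 1.69 (standard error 0.222, edgeR adjusted p = 0.00181), and it was an upregulated DEG. Nfil3 rose in the same libraries in which Dbp, Tef and Hlf fell. Its counts over the summed counts of Dbp, Tef and Hlf were 0.115, 0.0855 and 0.0597 at 0 h PCS and 0.459, 0.420 and 0.657 at 6 h PCS. That is a 6.00-fold higher ratio at 6 h PCS (difference in log2 ratio 2.59, standard error 0.336, exact permutation p = 0.10, adjusted p = 0.125). Both parts of this ratio were already apart in opposite directions, so its separation and p-value followed from them and are no separate support.

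**Figure D3:**
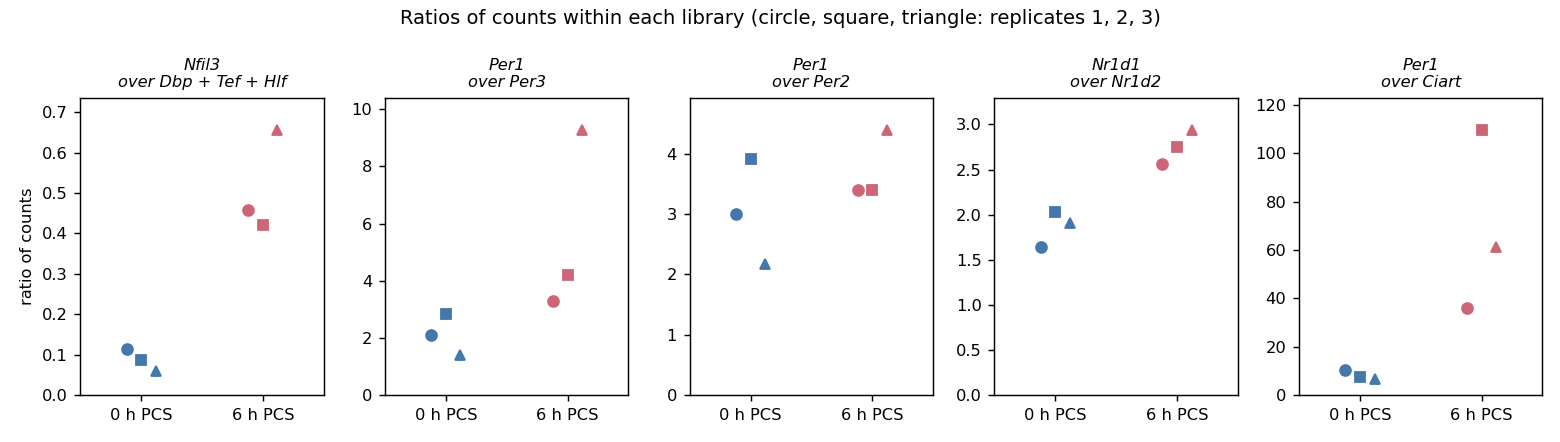
Each panel plots a ratio of raw counts within each library on a linear axis from 0, with the 3 libraries of each time point as points. Of the 5 ratios, 4 are separated between 0 h and 6 h PCS and Per1 over Per2 is not, and Nfil3 over the sum of Dbp, Tef and Hlf moves from at most 0.115 to at least 0.420.

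Among the other genes of the clock, 9 of 24 listed had an ID at hand, and all 9 were tested. Of these, 5 rose at the FDR limit and 3 of them were upregulated DEGs, beside 6.31% and 4.53% of all genes tested and 16.2% and 11.6% of the tested genes with a symbol. With edgeR 0 of the 9 were downregulated DEGs, as with DESeq2 and the exact test, and 0 were lower at an unadjusted p under 0.05. Their median log2 fold change was 0.82. Noct, which encodes the rhythmic phosphatase nocturnin, went from 36.1 ± 10.8 to 266 ± 55.1 CPM (SD, n = 3, log2 fold change 2.88, edgeR adjusted p = 0.000273). Nampt, which encodes the rate-limiting enzyme of NAD salvage, went from 33.8 ± 1.37 to 131 ± 19.1 CPM (SD, n = 3, log2 fold change 1.96, edgeR adjusted p = 0.000142). These, with Nfil3, were the 3 DEGs, and each was a DEG in all 6 of the fits with a library removed.

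Bhlhe40, which encodes the E-box repressor DEC1, rose from 148 ± 29.1 to 277 ± 85.6 CPM (SD, n = 3) with a log2 fold change of 0.91 (edgeR adjusted p = 0.0402), below the fold limit. It passed the FDR limit in only 1 of the 6 fits without one library, the one without 6 h replicate 2, with adjusted p-values from edgeR up to 0.140, and not with library size scaling (0.59, edgeR adjusted p = 0.0778). Fbxw11, an F-box gene whose product takes part in PER degradation, rose by 0.61 on the log2 scale (edgeR adjusted p = 0.0366). It too kept the call in 1 of those 6 fits, the one without 6 h replicate 1 (edgeR adjusted p up to 0.145 in the others), and stood at 0.30 with library size scaling (edgeR adjusted p = 0.258). Cry1, the partner of the PER proteins, had 24.0, 19.5 and 21.7 CPM at 0 h PCS and 37.6, 32.0 and 27.7 CPM at 6 h PCS, which are separate groups, but its log2 fold change of 0.58 was not called (edgeR adjusted p = 0.0729). Npas2, which encodes a paralog of CLOCK, overlapped between the groups and had a log2 fold change of 0.82 (edgeR adjusted p = 0.304). Arntl, Cry2, Rora and Bhlhe41 were not analysed here.

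Of 13 genes listed for the cAMP and glucocorticoid inputs to the clock, 9 had an ID and were tested, and 3 were upregulated and 1 downregulated DEGs, against 4.53% and 0.821% of all genes tested and 11.6% and 2.1% of those with a symbol. Their median log2 fold change was 0.57. On the cAMP side, Sik1, which encodes a kinase that restrains CREB coactivators, rose by 1.63 on the log2 scale (edgeR adjusted p = 0.00386). Crtc2, which encodes one of those coactivators, rose by 1.18 (edgeR adjusted p = 0.00313). Fkbp5, a glucocorticoid receptor cochaperone, fell by 1.38 (edgeR adjusted p = 0.00400), with 39.5, 65.2 and 41.2 CPM at 0 h PCS and 20.1, 18.8 and 17.0 CPM at 6 h PCS. Klf9, a glucocorticoid-induced factor, rose by 1.23 (edgeR adjusted p = 0.0374), but it was a DEG in only 2 of the 6 fits without one library. Of the other glucocorticoid genes, Tsc22d3 (−0.81) and Zbtb16 (−0.89) lay below 0 h in every 6 h library and Sgk1 (0.75) and Nr3c1 (0.37) above, and none passed (edgeR adjusted p = 0.0793, 0.0772, 0.0525 and 0.122).

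The spread among libraries of one time point differed between the genes. On the log2 scale the SD over the 3 libraries at 0 h PCS was 0.013 for Nr1d2, 0.080 for Hlf and 0.33 for Per3, with a median of 0.17 over the 9 genes beside 0.27 over all genes tested. At 6 h PCS it ran from 0.046 in Per2 to 0.86 in Ciart, with a median of 0.24 beside 0.35. No single library was lowest or highest throughout. At 0 h PCS, replicate 1 was the lowest in Dbp, Hlf, Nr1d1 and Ciart and the highest in Tef. At 6 h PCS, replicate 3 was the lowest in Per3, Tef and Dbp and the highest in Per1, Nr1d1 and Nr1d2.

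The libraries held 18039974 to 24701039 counts on genes, with TMM factors between 1.09 and 1.15 for the 0 h libraries and between 0.827 and 0.990 for the 6 h libraries. Of the lens epithelial markers, 6 of 10 had an ID and were present in every library. Among these, Sox2, Prox1, Pitx3 and Mab21l1 (4 of 6) were lower at the FDR limit. That share was 2.02% over all genes tested and 5.02% among those with a symbol, a set drawn in part from changed genes. Cdh1, Cryab, Cryaa and Six3 had no ID at hand. The paper states that most lens epithelial markers kept their pre-injury levels at 6 h PCS. The summed level of the 6 markers was 1367 to 1596 CPM at 0 h and 886 to 1189 CPM at 6 h PCS. The pigment cell markers (4 of 6 with an ID) summed to between 51.4 and 209 CPM in the 0 h libraries. In 6 h replicates 1 to 3 they summed to 77.4, 456 and 1965 CPM. Of the 6 h libraries, replicate 3 was the lowest in Per3, Tef and Dbp and the highest in Per1, Nr1d1 and Nr1d2. Ciart was lowest in 6 h replicate 2. The erythrocyte markers (5 of 5) went from 7.94 to 19.5 CPM to 73.5 to 133 CPM. All were upregulated DEGs, beside 4.53% of all genes tested and 11.6% of those with a symbol. The leukocyte markers (6 of 10, 1 of them a DEG, Cd68) had 13.5 to 22.6 and 16.8 to 32.3 CPM, the endothelial ones (4 of 4) 4.10 to 26.3 and 20.0 to 36.9 CPM, the corneal ones (3 of 4) 348 to 495 and 318 to 451 CPM, the retinal ones (3 of 5) 42.0 to 304 and 133 to 416 CPM, and the lens fiber ones (2 of 12) 1359 to 1830 and 1182 to 1614 CPM. The corneal sum was mostly Aldh3a1, with means of 436 and 279 CPM, while the keratin genes went from means of 2.97 to 55.4 CPM (Krt12) and of 3.44 to 31.5 CPM (Krt5). The endothelial sum was mostly Kdr, with means of 12.3 and 20.8 CPM, while Pecam1 went from 0.791 to 3.13 CPM and Cdh5 from 0.219 to 2.24 CPM. In Krt12, Krt5, Pecam1 and Cdh5 every 6 h library was above every 0 h library, and with edgeR none of the 4 was called (adjusted p = 0.0792, 0.146, 0.0644 and 0.0529). No marker with an ID was at 0 in all libraries, and the part of these cells in the clock gene results was not tested. In pooled tissue, fewer cells of a type and less RNA per cell cannot be told apart.

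The scaling of the libraries set where 0 lay for the small changes. With libraries scaled on their size alone, the median log2 fold change of all genes tested moved from −0.0030 to −0.32, and the split of DEGs from 762 upregulated and 138 downregulated to 572 and 627. Under that scaling 4 of the 9 genes were downregulated DEGs, Ciart (−2.80), Tef (−1.36), Per3 (−1.19) and Dbp (−1.14), while Per2 and Nr1d1 turned to −0.27 and −0.028 and Per1 stood at 0.089. Nr1d2 passed the FDR limit there, with −0.60 (edgeR adjusted p = 0.0323). The clock input genes then had 1 upregulated and 3 downregulated DEGs, and the other clock genes kept their count of 3 upregulated DEGs. Relative to the shifted median, Per1 stood at 0.41, Per2 at 0.052, Nr1d1 at 0.29, Tef at −1.04 and Ciart at −2.48, so that the order of the genes among themselves was as with TMM.

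**Figure D4:**
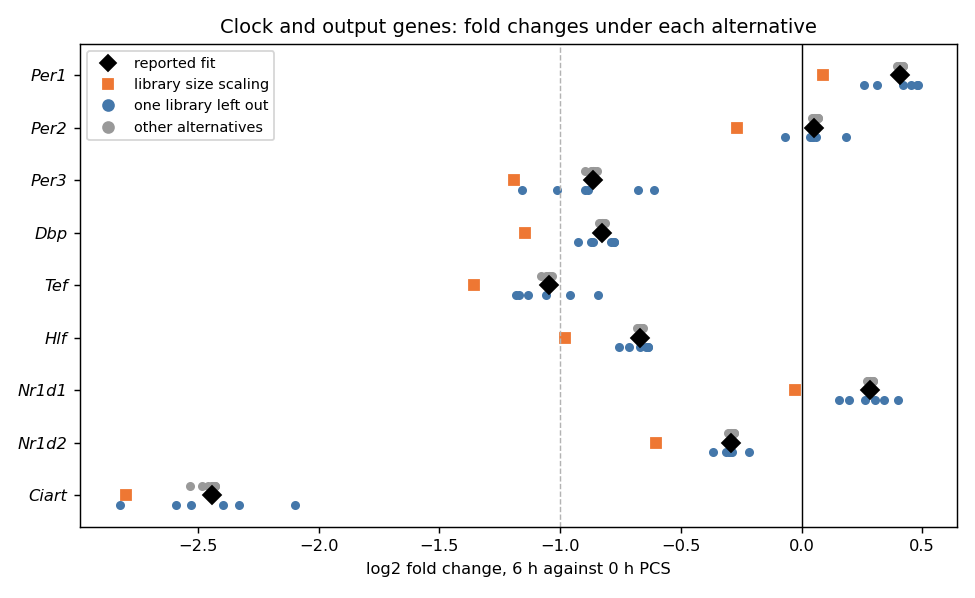
For each gene the plot gives the log2 fold change of the reported edgeR fit (diamond), of library size scaling (square), of each fit without one library and of the other alternatives (dots), with a dashed line at −1. Library size scaling moves every gene to the left by about the same amount, Ciart spreads from −2.82 to −2.10 and Tef from −1.36 to −0.84, and Per2 and Nr1d1 cross 0.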

How the data were processed

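Reads of ribosome-depleted, strand-marked, paired-end libraries were aligned by the authors to GRCm38 with HISAT2, and the deposited values are raw counts per gene from HTSeq in union mode, which sets reads on overlapping genes aside (0.670% to 0.888% of reads). The versions of HISAT2 and HTSeq and the strand setting are not given in the sources used here. Counted genes held 33.6% to 41.2% of reads.

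Symbols and exon lengths were taken from supplementary tables of the study, which name 7023 of 55421 genes, and spans and overlaps from RefSeq (GRCm38.p6). Libraries were grouped by labelled time PCS. Counts were tested with edgeR 4.0.16 (R 4.3.3, filterByExpr, TMM, robust quasi-likelihood F-test, Benjamini-Hochberg over 16810 genes), and FPKM was computed on total gene counts. DESeq2 1.42.0 and further settings served as alternatives. Named genes were the clock and output genes, list genes at FDR 0.05, fixed clock partners, overlapping genes, and the 5 genes most like Dbp, Tef and Hlf. The other glucocorticoid genes and single cell type markers were named after their values were seen. The genes and lists were chosen with earlier results of these data known. Over the genes as a whole, replicates differed by more than sampling noise (chi-square per degree of freedom 22.9 to 74.3), as separate pools would. The spread between pools thus weighed more than depth over all genes. This was not examined gene by gene, and the log2 SD of Nr1d2 at 0 h PCS was only 0.013.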

Additional observations from a re-analysis of the deposited data

How the results depend on the processing

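The count of downregulated DEGs among the 9 clock and output genes was 2 in the reported fit and in 8 alternatives (DESeq2, the exact test, the edgeR 4 method, no robust estimation, DESeq2 size factors, no filter, at least 10 counts in every library, and the replicate block). It was 4 with library size scaling and 1, Ciart, in glmTreat against a fold of 2, and 1 to 3 in the fits without one library. Over all genes the 900 DEGs became 1391 with DESeq2, 221 with glmTreat (217 upregulated and 4 downregulated) and 553 to 877 without one library, lowest without 0 h replicate 1. glmTreat called 0 of the clock input genes by edgeR, with 2 at an unadjusted p under 0.05, where the other tests called 3 or 4, and it called 2 of the other clock genes, Nampt and Noct. The fits without one library gave 3 to 4 DEGs in each of these lists. Signs reversed in Per2 with library size scaling (−0.27) and without 0 h replicate 2 (−0.070, the fits without one library reaching 0.18), and in Nr1d1 with library size scaling (−0.028). Library size scaling moved the median of all genes to −0.32, and relative to it Per2 stood at 0.052 and Nr1d1 at 0.29, close to the reported fit. The causes of the other changes were not tested. Replicate numbers are shared by the time points, but the correlation of deviations of same-numbered libraries was 0.0037, 0.22 and 0.14 over 16810 genes (between −0.19 and 0.023 for other pairs). In 2 of the 3 numbers the same-numbered pair was the highest for both libraries, and 0 h replicate 1 was highest with 6 h replicate 3 (0.023). The labels do not tie a number to an animal, and whether the pools were paired was not settled by these values. With the replicate block there were 1050 DEGs in all and 2, 3 and 4 in the lists of clock and output, other clock and clock input genes, with Tef at −1.08 and Ciart at −2.53.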

Other observations

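The genes whose levels over the 6 libraries were most like the mean log2 CPM of Dbp, Tef and Hlf were Cdc25a (Pearson r = 0.997), Zfp157 (0.995), Zfp606 (0.995), Klhl24 (0.994) and Zfp120 (0.993). The r is a description over 6 libraries that share one contrast. These genes were picked for following a mean that was lower at 6 h PCS in the same libraries. Their fall was thus set by the choice, and their adjusted p-values below are no separate support. Dbp, at r = 0.973, ranked 97 among the 16810 genes tested. Cdc25a encodes a phosphatase that drives cell cycle entry, and it fell from a mean of 6.45 to 2.68 CPM (log2 fold change −1.27, edgeR adjusted p = 0.0310). The zinc finger protein genes Zfp157, Zfp606 and Zfp120 fell by 1.05, 1.07 and 1.95 on the log2 scale (edgeR adjusted p = 0.0226, 0.00748 and 0.00986). Klhl24, which encodes a substrate adaptor for ubiquitination, fell from 46.3 to 21.0 CPM (log2 fold change −1.14, edgeR adjusted p = 0.00487). By the same measure Dbp, Hlf and Tef themselves had r = 0.973, 0.968 and 0.964 to their own mean, Ciart 0.868, Per3 0.867, Nr1d2 0.737, Per2 −0.22, Nr1d1 −0.71 and Per1 −0.88.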
